A study of Mus musculus with 9 samples.

Results

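The insulin-like growth factor (IGF) genes studied here were both ligands, Igf1 and Igf2, the receptors Igf1r and Igf2r, and 6 binding proteins, Igfbp2 to Igfbp7. They were taken as all probes whose platform symbol is one of these names. This gave 10 of 16593 genes and 14 of 25696 probes of an Illumina mouse expression bead array. Each of the 10 genes had a probe above background on at least 1 array, and 13 of the 14 probes entered the tests. RNA was hybridised from LPS-stimulated gliospheres, from untreated gliospheres and from GFAP-glia taken directly (in vivo), on 3 arrays per group. All cells came from FVB mice carrying hGFAP-eGFP, at postnatal day 7, and were sorted for green fluorescence from the small intestinal LMMP, the muscle layers with the myenteric plexus. In these mice the human GFAP promoter drives the fluorescent protein, so the sort selects cells by transgene activity. GFAP-glia in vivo went from the sorter into lysis buffer. Gliospheres are spheroids grown from the sorted cells over 2 weeks of adherent culture and a passage, in 2% O2, with N2 and B27 supplements and EGF and bFGF at 40 ng/ml each. LPS, a lipid and sugar molecule of the bacterial outer membrane, was added at 100 µg/ml and left for 48 h. Each replicate was 1 litter, pooled. Each preparation was split into LPS-stimulated and untreated gliospheres, which are matched here by their replicate number.

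IGF-1 and IGF-2 are small proteins related to insulin that act on growth, survival and differentiation, and in the gut they are known from growth of the muscle wall and the mucosa. Both signal through the tyrosine kinase receptor IGF1R, while IGF2R, which is also the mannose 6-phosphate receptor, takes up IGF-2 and carries it to lysosomes. Binding proteins hold IGFs outside the cell, and proteases that cut them set the ligands free.

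The median signal was 145.2 to 215.5 on the gliosphere arrays and 123.8 to 164.5 on the in vivo arrays, and 46.6 to 50.1% of the probes were above background (detection p of 0.05 or less) on each array. Arrays of 1 group correlated at 0.975 to 0.980 in both gliosphere groups, whereas in vivo replicate 1 correlated at 0.910 and 0.898 with in vivo replicates 2 and 3, which correlated at 0.962 with each other. The marker Gfap was above background on all 6 gliosphere arrays (signals of 407 to 878) and on 0 of 3 in vivo arrays (113 to 155), so that the labelled cell type is not borne out by this marker in vivo. Other glial markers differed from it. Fabp7 was above background on 0 of 6 gliosphere arrays and on 2 of 3 in vivo arrays, and S100b on 5 of 6 and 2 of 3. Entpd2, an ectonucleotidase of enteric glia, was above background on all 9 arrays. Of the smooth muscle markers, Myh11 was above background on none of the gliosphere arrays and had normalized log2 signals of 11.48, 9.53 and 8.42 in GFAP-glia in vivo replicates 1, 2 and 3. Des, the muscle intermediate filament gene, was likewise not above background in gliospheres and had 9.15, 8.06 and 7.01 in vivo. Acta2, in contrast, was above background on all 9 arrays, with 11.04 to 11.51 in LPS-stimulated gliospheres, 11.78 to 12.71 in untreated gliospheres and 12.78 to 13.84 in vivo. Tagln was above background on all 6 gliosphere arrays and on 2 of 3 in vivo arrays, Actg2 on 5 of 6 and 3 of 3, and Cnn1 on none. In bulk samples such as these, fewer cells of a type and less RNA per cell cannot be told apart.

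Most of the IGF genes differed between gliospheres and the cells that were lysed directly. In untreated gliospheres compared with GFAP-glia in vivo, 7 of the 10 genes passed the test (limma, adjusted p under 0.05), where 26.0% of the 10795 genes tested did. Igf2r, Igfbp2, Igfbp3 and Igfbp7 were higher, a direction called for 13.2% of all genes, and Igf2, Igfbp4 and Igfbp6 were lower, called for 12.8%. The median log2 difference of the 10 genes was 0.05, beside 0.09 over all genes tested, with 5 positive differences. In LPS-stimulated gliospheres the comparison with GFAP-glia in vivo gave 4 higher genes (14.8% of all genes) and 3 lower (14.5%), where 29.4% of all genes passed, and the median was 0.38 beside 0.08. Between LPS-stimulated and untreated gliospheres 0 of the 10 genes passed, where 0.991% of all genes did (0.778% higher and 0.213% lower). Both in vivo comparisons use the same in vivo arrays and are therefore not independent of each other.

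**Figure D1:**
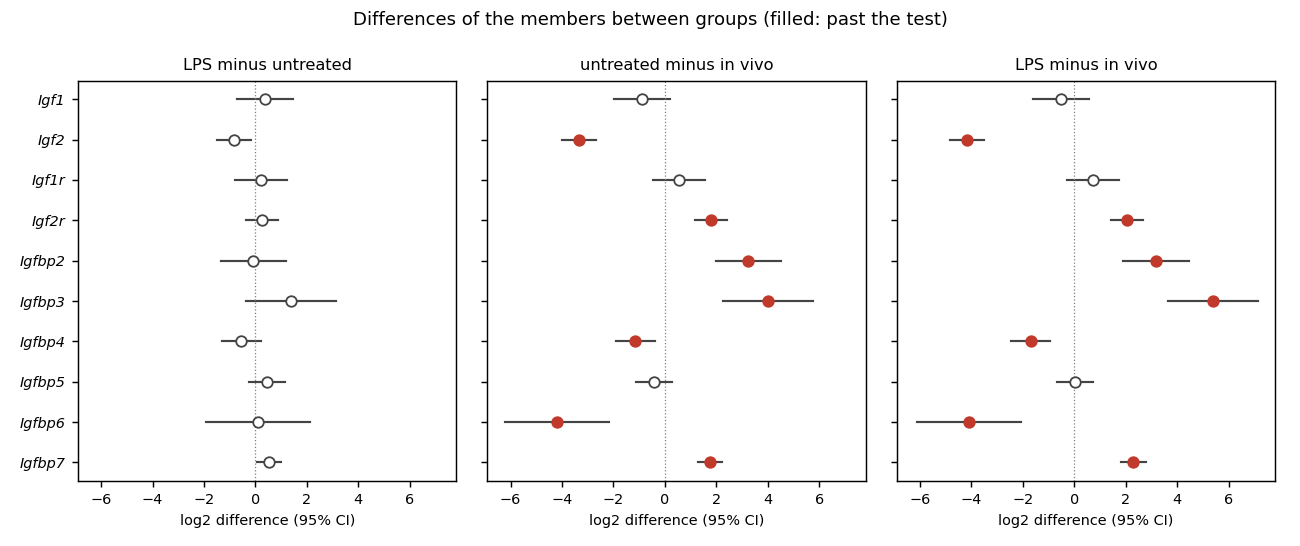
Log2 differences of the 10 IGF genes (rows) in LPS-stimulated minus untreated gliospheres (left), untreated gliospheres minus GFAP-glia in vivo (middle) and LPS-stimulated gliospheres minus GFAP-glia in vivo (right). Points are fitted differences, bars are 95% confidence intervals, and filled points passed the test, which 0 genes did on the left and 7 did in each other panel.

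Igf2, the ligand of growth before birth, was lower in gliospheres than in GFAP-glia in vivo. Its normalized log2 signals were 7.13, 6.97 and 6.6 in LPS-stimulated gliospheres (replicates 1, 2 and 3), 7.29, 8.10 and 7.83 in untreated gliospheres, and 10.91, 11.48 and 10.85 in GFAP-glia in vivo. The 3 groups did not overlap, with LPS-stimulated gliospheres lowest and GFAP-glia in vivo highest. Untreated gliospheres were 10.1-fold lower than GFAP-glia in vivo (log2 difference -3.34, standard error 0.30, adjusted p = 8.38e-05). LPS-stimulated gliospheres were 18.1-fold lower than GFAP-glia in vivo (log2 difference -4.18, standard error 0.30, adjusted p = 1.95e-05). Igf2 lies on chromosome 7 (142650768 to 142666816, minus strand, GRCm38.p6) and is expressed from the paternal allele.

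Igf1, the ligand that growth hormone induces in liver, stayed close to background in every group. Its signals were 194, 187 and 153 in LPS-stimulated gliospheres, 188, 188 and 238 in untreated gliospheres, and 224, 132 and 132 in GFAP-glia in vivo. It was above background on 2, 1 and 2 of the 3 arrays in these groups, and the groups overlapped. The log2 difference was -0.89 between untreated gliospheres and GFAP-glia in vivo (95% confidence interval -1.98 to 0.20, adjusted p = 0.209, limma), and -0.52 for LPS-stimulated gliospheres against GFAP-glia in vivo (-1.61 to 0.57, adjusted p = 0.461). Any difference within these intervals remains possible at these signals.

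Igf2r was higher in gliospheres by both of its probes. By the brighter probe the normalized log2 signals were 11.21, 11.59 and 11.78 in LPS-stimulated gliospheres, 11.33, 10.97 and 11.48 in untreated gliospheres, and 9.05, 9.65 and 9.73 in GFAP-glia in vivo. All 6 gliosphere arrays lay above all 3 in vivo arrays, while both gliosphere groups overlapped. The difference was 3.44-fold for untreated gliospheres (log2 difference 1.78, standard error 0.28, adjusted p = 0.00189) and 4.14-fold for LPS-stimulated gliospheres (2.05, standard error 0.28, adjusted p = 6.99e-04). The other probe gave 2.44-fold (1.29, adjusted p = 0.00451) and 2.90-fold (1.53, adjusted p = 0.00146), and its values correlated with those of the first at 0.92 over the 9 arrays.

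Igf1r, the signalling receptor, did not pass in any comparison, and its level in vivo turned on 1 array. Its normalized log2 signals were 8.88, 9.07 and 8.85 in LPS-stimulated gliospheres, 8.50, 8.86 and 8.85 in untreated gliospheres, and 9.37, 7.81 and 7.41 in GFAP-glia in vivo. In vivo replicate 1 lay above all gliosphere arrays and in vivo replicates 2 and 3 lay below them. The log2 difference from GFAP-glia in vivo was 0.54 for untreated gliospheres (adjusted p = 0.408) and 0.74 for LPS-stimulated gliospheres (adjusted p = 0.252). Without in vivo replicate 1 it was 1.13 (adjusted p = 0.00559) and 1.33 (adjusted p = 0.00233), which passed. With array weights it also passed, at 1.02 (adjusted p = 0.0245) and 1.18 (adjusted p = 0.0104).

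Igfbp3 was higher in gliospheres than in GFAP-glia in vivo. Its protein carries most circulating IGF in a ternary complex. The normalized log2 signals of Igfbp3 were 10.73, 9.72 and 10.28 in LPS-stimulated gliospheres, 9.0, 9.07 and 8.55 in untreated gliospheres, and 6.89, 4.42 and 3.20 in GFAP-glia in vivo. The groups did not overlap, and in vivo it was above background on replicate 1 alone. Untreated gliospheres were 16.4-fold higher than GFAP-glia in vivo (log2 difference 4.03, standard error 0.77, adjusted p = 0.00553). LPS-stimulated gliospheres were 42.3-fold higher (5.40, standard error 0.77, adjusted p = 9.68e-04). These folds rest on in vivo values near background. The log2 differences were 1.77 and 2.90 with the values as the authors normalized them, 5.06 and 6.43 without in vivo replicate 1, and 3.22 and 4.59 without in vivo replicate 3, with the adjusted p under 0.05 each time.

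Igfbp2, a binding protein of fetal tissue and brain with a preference for IGF-2, was higher in gliospheres by both probes. By the brighter probe the normalized log2 signals were 10.01, 10.23 and 10.81 in LPS-stimulated gliospheres, 10.16, 10.40 and 10.74 in untreated gliospheres, and 8.48, 7.16 and 5.89 in GFAP-glia in vivo. Every gliosphere array was above every in vivo array. The difference was 9.53-fold for untreated gliospheres (log2 difference 3.25, standard error 0.56, adjusted p = 0.00334) and 9.03-fold for LPS-stimulated gliospheres (3.18, standard error 0.56, adjusted p = 0.00309). The authors' normalized values gave smaller log2 differences, of 2.28 and 2.19. On the VSN scale they were 3.90 and 3.83 without in vivo replicate 1, and 2.61 and 2.53 without in vivo replicate 3. The dimmer probe was above background on 1 of 3 in vivo arrays, with log2 differences of 3.74 (adjusted p = 0.0354) and 4.09 (adjusted p = 0.0223). The first of these did not pass with the replicate number as a block (adjusted p = 0.0573), nor in 7 of the 9 fits that left out 1 array, and the second failed in 3 of those 9.

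Igfbp7, a secreted protein that binds IGFs weakly and is deposited around blood vessels, had narrow groups. The normalized log2 signals of Igfbp7 were 14.06, 14.32 and 14.34 in LPS-stimulated gliospheres, 13.59, 13.90 and 13.64 in untreated gliospheres, and 12.09, 11.79 and 11.96 in GFAP-glia in vivo. On this scale the 3 groups did not overlap. Untreated gliospheres were 3.40-fold higher than GFAP-glia in vivo (log2 difference 1.77, standard error 0.21, adjusted p = 4.47e-04) and LPS-stimulated gliospheres 4.90-fold higher (2.29, standard error 0.21, adjusted p = 7.75e-05). A second Igfbp7 probe was above background on 0 of 9 arrays, with signals of 108 to 161, and was not tested, so that Igfbp7 rests on 1 probe.

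Igfbp6, a binding protein that prefers IGF-2, was detected in the directly sorted cells only. Its signals were 155, 143 and 125 in LPS-stimulated gliospheres, 164, 153 and 188 in untreated gliospheres, and 905, 215 and 139 in GFAP-glia in vivo. It was above background on 0 of 6 gliosphere arrays and on all 3 in vivo arrays, whose normalized log2 signals were 9.81, 7.31 and 5.42. Untreated gliospheres were at least 6.73-fold lower than GFAP-glia in vivo (adjusted p = 0.00878) and LPS-stimulated gliospheres at least 6.45-fold lower (adjusted p = 0.00854). These bounds hold on the VSN scale and set each gliosphere array at the lowest value of its detected probes. Without in vivo replicate 1 they were 3.03-fold and 2.91-fold, and without in vivo replicate 3 they were 13.9-fold and 13.3-fold. The fitted log2 differences of -4.21 and -4.11 were -3.06 and -2.96 without in vivo replicate 1 and -5.26 and -5.15 without in vivo replicate 3. With the authors' normalized values the differences were -1.48 and -1.47, smaller than these bounds, and did not pass (adjusted p = 0.0622 and 0.0609).

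Igfbp4, a binding protein cut by the protease PAPP-A, was lower in gliospheres. By the brighter probe its normalized log2 signals were 10.77, 10.23 and 10.98 in LPS-stimulated gliospheres, 11.39, 10.63 and 11.62 in untreated gliospheres, and 12.24, 12.10 and 12.76 in GFAP-glia in vivo. On this scale all in vivo arrays lay above all gliosphere arrays, and the gliosphere groups overlapped. Before normalization the mean signals were 1998 in LPS-stimulated gliospheres, 3718 in untreated gliospheres and 3471 in GFAP-glia in vivo, so that the lower value of untreated gliospheres appears only after normalization. Untreated gliospheres were 2.22-fold lower than GFAP-glia in vivo (log2 difference -1.15, standard error 0.34, adjusted p = 0.0346) and LPS-stimulated gliospheres 3.26-fold lower (-1.70, standard error 0.34, adjusted p = 0.00539). The other probe gave -1.21 (adjusted p = 0.0291) and -1.92 (adjusted p = 0.00297), and both probes correlated at 0.99. For untreated gliospheres the brighter probe passed under 11 of 18 alternatives. It was not called with no detection filter (adjusted p = 0.0595), with only the groups compared (0.0705) or with array weights (0.0684), and it passed in 5 of the 9 fits that left out 1 array. It missed the threshold without in vitro replicate 1 (adjusted p = 0.0690), in vitro replicate 2 (-0.86, 0.122), in vitro_LPS replicate 1 (0.0548) or in vivo replicate 3 (0.0915). The other probe missed it without in vitro replicate 2 (-0.87, 0.0950) or in vivo replicate 3 (-1.05, 0.0778). The comparison of LPS-stimulated gliospheres passed in all 9.

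Igfbp5, a binding protein of muscle and bone that also binds extracellular matrix, did not pass in any comparison. Its normalized log2 signals were 12.57, 12.40 and 12.84 in LPS-stimulated gliospheres, 12.19, 11.70 and 12.58 in untreated gliospheres, and 13.07, 12.41 and 12.29 in GFAP-glia in vivo. The groups overlapped throughout. The log2 difference from GFAP-glia in vivo was -0.43 for untreated gliospheres (95% confidence interval -1.13 to 0.26, adjusted p = 0.333, limma) and 0.02 for LPS-stimulated gliospheres (-0.68 to 0.71, adjusted p = 0.976). Igfbp5 and Igfbp2 are neighbours on chromosome 1 with their 3′ ends facing each other and 5590 bases between them (Igfbp2 72824480 to 72852474 on the plus strand, Igfbp5 72858065 to 72874865 on the minus strand, GRCm38.p6).

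**Figure D2:**
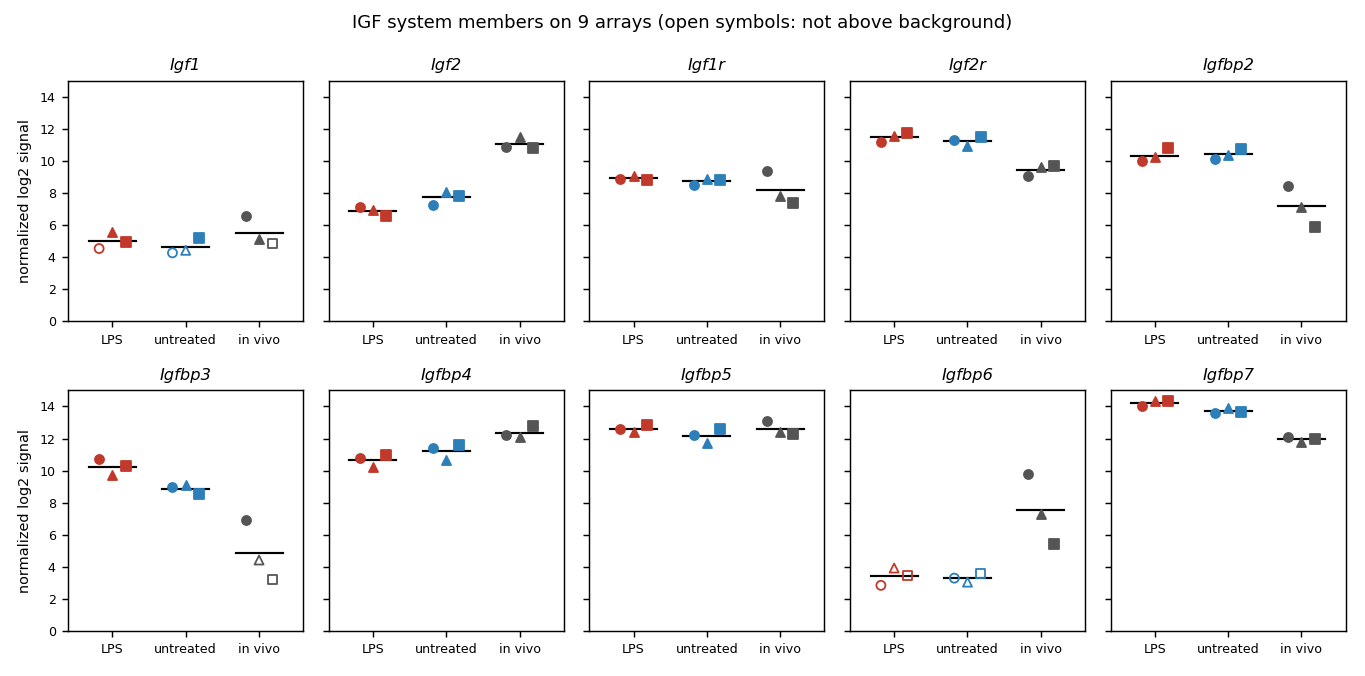
Normalized log2 signal (vertical axis) of the 10 IGF genes on the 9 arrays, by the probe with the highest mean signal, in LPS-stimulated gliospheres, untreated gliospheres and GFAP-glia in vivo. Points are arrays (circle, triangle and square for replicates 1, 2 and 3), lines are group means, and open symbols were not above background; Igfbp6 is open on all 6 gliosphere arrays.

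The question of the LPS exposure was whether a bacterial stimulus changed the cultured glia. None of the IGF genes passed (limma with Benjamini-Hochberg adjustment, 0 of 10), and 2 of 10 had an unadjusted p under 0.05, as did 8.05% of all genes tested. These were Igf2, with a log2 difference of -0.84 (95% confidence interval -1.51 to -0.17, adjusted p = 0.440), and Igfbp7, with 0.53 (0.05 to 1.00, adjusted p = 0.561). Igfbp3 had the largest difference, 1.37 or 2.59-fold, with groups that did not overlap, and a confidence interval of -0.38 to 3.12 (adjusted p = 0.879). The fit pools the spread of all 3 groups, and that of Igfbp3 was 0.51 in LPS-stimulated gliospheres, 0.28 in untreated gliospheres and 1.88 in GFAP-glia in vivo (SD of the log2 signal, n = 3 each).

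LPS-stimulated and untreated gliospheres were also set against each other within litters, matched by replicate number. LPS-stimulated minus untreated gliospheres of the same litter differed by 1.73, 0.65 and 1.73 for Igfbp3 (litters 1, 2 and 3) and by 0.47, 0.42 and 0.70 for Igfbp7. Igfbp5 gave 0.38, 0.70 and 0.26, Igfbp4 gave -0.62, -0.40 and -0.64, and Igf2 gave -0.16, -1.13 and -1.23. These 5 genes differed in the same direction in all 3 litters. The share of all genes tested that kept 1 direction was not computed, so this count is a description only. Igf1r gave 0.38, 0.21 and 0.00. Igf2r (-0.12, 0.62 and 0.30), Igfbp2 (-0.15, -0.17 and 0.07), Igf1 and Igfbp6 did not keep 1 direction.

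Keeping the litter as a block on the gliosphere arrays alone left 0 of 10 genes past the test on the VSN values, where the adjusted p was 0.135 for Igfbp3 and 0.194 for Igfbp4, and 0.852% of all genes passed. The same model on the values as the authors normalized them called 5 of 10 genes, where 9.26% of all genes passed (4.38% higher and 4.88% lower). Igfbp3 (log2 difference 1.13, adjusted p = 0.00314), Igfbp7 (0.45, adjusted p = 0.0168) and Igfbp5 (0.39, adjusted p = 0.0274) were higher with LPS. Igfbp4 (-0.54, adjusted p = 0.00328) and Igf2 (-0.45, adjusted p = 0.0389) were lower. This combination was chosen after the data had been seen and has 2 residual degrees of freedom. The summed signal of 7 fibroblast markers was 19790 to 23082 in LPS-stimulated and 13012 to 15553 in untreated gliospheres, where Dcn alone had 9719 to 11778 and 1333 to 3702. Before normalization the other 6 markers summed to 9314, 11304 and 10228 in LPS-stimulated and 9987, 11679 and 13690 in untreated gliospheres. In each of litters 1, 2 and 3, listed in this order, that sum was lower with LPS. The median signals of these arrays were 195.6, 157.8 and 145.2 (LPS-stimulated) and 196.1, 193.5 and 215.5 (untreated). On the normalized scale Lum, Pdgfra, Col1a1 and Col1a2 were higher with LPS in each litter, and Col3a1 and Thy1 did not keep 1 direction. The mean normalized log2 signal of the 7 markers was 9.39 to 9.86 in LPS-stimulated and 8.66 to 8.82 in untreated gliospheres. The part of fibroblast RNA in the IGF gene differences was not tested.

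Several members and markers of more than 1 cell type had the same order on the in vivo arrays. On the normalized scale Igf1, Igf1r, Igfbp2, Igfbp3, Igfbp5 and Igfbp6 were highest on in vivo replicate 1 and lowest on in vivo replicate 3. The same held for Actg2, Myh11 and Des. Before normalization Igf1 had signals of 131.7 and 132.4 on in vivo replicates 2 and 3, and on replicate 3 it was not above background. The summed signal of the 6 smooth muscle markers was 2923 to 5202 in LPS-stimulated and 6426 to 10317 in untreated gliospheres, where Acta2 made up most of the sum. It was 23818, 12234 and 4841 on in vivo replicates 1, 2 and 3. As mean normalized log2 signals these 6 markers were ordered otherwise, with 5.78 to 5.96 in LPS-stimulated and 5.32 to 5.76 in untreated gliospheres. In vivo replicates 1, 2 and 3 had means of 9.51, 8.84 and 8.07, above all gliosphere arrays. The summed signals of the fibroblast markers (19882, 11924 and 5873) and of 5 neuron markers (19635, 11592 and 7454) had this order too. As mean normalized log2 signals the fibroblast markers kept it (9.42, 9.08 and 8.79) and the neuron markers did not (9.34 and 9.38 on replicates 1 and 2). Taken singly, only Col1a1 (12.78, 10.49 and 8.92) and Dcn (12.88, 12.59 and 11.42) of the fibroblast markers kept it on this scale. Pdgfra and Thy1 were highest on in vivo replicate 3, and Col1a2, Col3a1 and Lum did not follow the order. The 4 glial markers with a probe had the reverse order, with means of 6.01, 6.74 and 7.01. Of these, Entpd2 (11.91, 12.36 and 13.13), S100b and Fabp7 rose from replicate 1 to 3. Gfap, not above background there, fell (4.31, 3.87 and 3.13). Igf2, Igfbp4 and Igfbp7 did not follow the order of Actg2, Myh11 and Des. They spanned 0.63, 0.67 and 0.29 log2 units in vivo, against 4.40 for Igfbp6 and 3.69 for Igfbp3. For Igf2r the probes disagreed, with 9.05, 9.65 and 9.73 by the brighter and 9.78, 9.45 and 9.15 by the other. The part of smooth muscle, fibroblast, neuron or glial RNA in these levels was not tested.

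**Figure D3:**
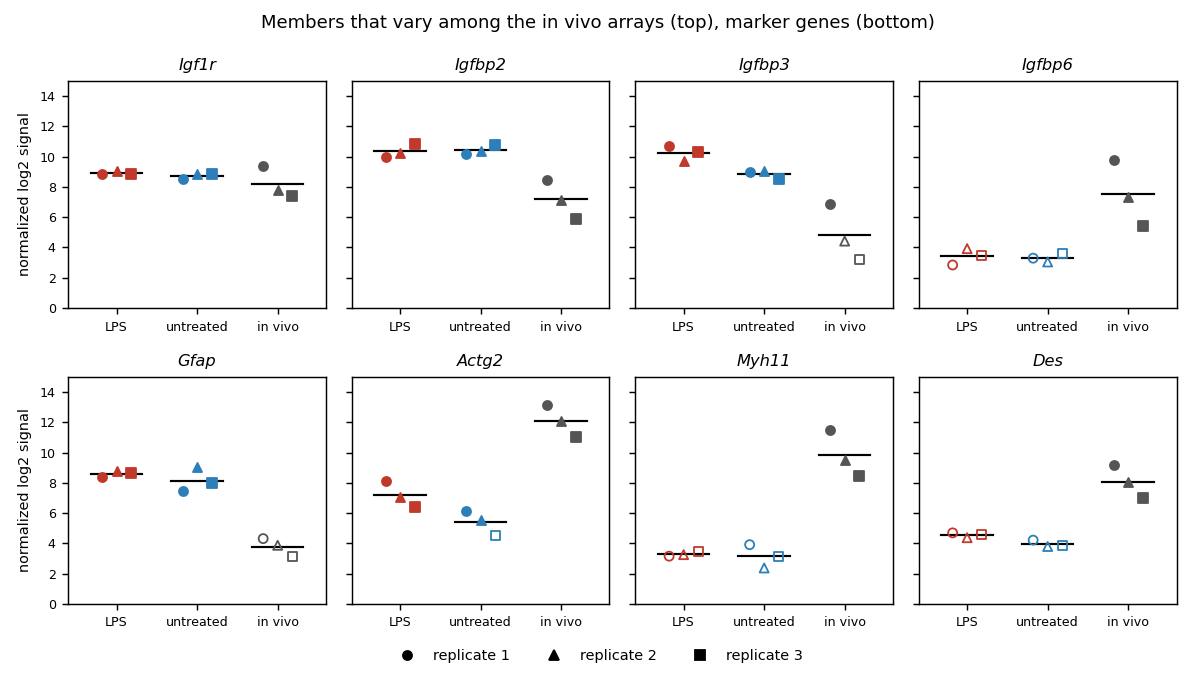
Normalized log2 signal (vertical axis) of Igf1r, Igfbp2, Igfbp3 and Igfbp6 (top) and of the glial marker Gfap and the muscle markers Actg2, Myh11 and Des (bottom) on the 9 arrays, with symbols by replicate, lines at group means and open symbols for arrays not above background. In vivo replicate 1 is the highest in vivo array in all 8 panels, although Gfap was above background on none of the in vivo arrays. The glial markers Entpd2, S100b and Fabp7, not shown, were lowest on in vivo replicate 1.

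Sequence upstream of the transcription start is shown because these genes differed together between gliospheres and GFAP-glia in vivo, first the 4 that were higher in gliospheres and then Igfbp4 and Igfbp6, which were lower. Each line holds 250 bases before a RefSeq start (GRCm38.p6), 5′ to 3′ on the gene's strand. Capitals mark matches on either strand. The TATA box was searched as TATAAA and the CCAAT box by those letters. The GC box was searched as GGGCGG and the E-box as CACGTG. The core of hypoxia response elements, which overlaps the E-box, was searched as ACGTG. All 10 genes had an entry, with 14 starts in all.
Igf2r, chr17:12769707-12769956, minus strand: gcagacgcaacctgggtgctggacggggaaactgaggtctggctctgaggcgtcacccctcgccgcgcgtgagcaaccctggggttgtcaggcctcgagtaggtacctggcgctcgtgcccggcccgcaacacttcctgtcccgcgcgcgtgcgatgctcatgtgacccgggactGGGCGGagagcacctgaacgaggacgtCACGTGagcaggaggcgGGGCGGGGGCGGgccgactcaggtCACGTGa
Igfbp2, chr1:72824230-72824479, plus strand: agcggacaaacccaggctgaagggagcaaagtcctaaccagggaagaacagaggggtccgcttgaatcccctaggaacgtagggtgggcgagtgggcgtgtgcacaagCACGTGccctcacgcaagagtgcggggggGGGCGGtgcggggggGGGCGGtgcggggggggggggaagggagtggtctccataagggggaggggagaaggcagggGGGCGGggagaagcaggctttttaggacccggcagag
Igfbp3, chr11:7213924-7214173, minus strand: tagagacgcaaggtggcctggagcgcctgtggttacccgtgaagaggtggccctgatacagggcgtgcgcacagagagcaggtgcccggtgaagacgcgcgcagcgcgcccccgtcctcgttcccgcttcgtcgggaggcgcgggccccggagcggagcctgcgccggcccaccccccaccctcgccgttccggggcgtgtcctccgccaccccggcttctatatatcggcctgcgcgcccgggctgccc
Igfbp7, chr5:77408046-77408295, minus strand: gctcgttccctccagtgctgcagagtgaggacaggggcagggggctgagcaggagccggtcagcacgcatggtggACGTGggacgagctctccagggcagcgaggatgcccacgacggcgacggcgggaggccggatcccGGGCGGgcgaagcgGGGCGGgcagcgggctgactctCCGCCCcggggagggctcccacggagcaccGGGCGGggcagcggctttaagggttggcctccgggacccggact
Igfbp4, chr11:99040994-99041243, plus strand: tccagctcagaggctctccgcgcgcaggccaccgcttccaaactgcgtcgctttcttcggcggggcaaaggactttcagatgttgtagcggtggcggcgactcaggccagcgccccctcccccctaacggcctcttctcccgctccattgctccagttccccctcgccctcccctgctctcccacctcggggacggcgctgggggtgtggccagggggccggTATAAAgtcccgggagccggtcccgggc
Igfbp6, chr15:102143936-102144185, plus strand: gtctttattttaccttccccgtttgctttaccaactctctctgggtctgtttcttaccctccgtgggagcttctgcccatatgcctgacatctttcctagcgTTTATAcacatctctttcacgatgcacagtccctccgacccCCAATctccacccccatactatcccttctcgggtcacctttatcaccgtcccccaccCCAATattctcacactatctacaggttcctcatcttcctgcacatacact

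GC boxes stood in the stretches of Igf2r (3), Igfbp2 (3) and Igfbp7 (4), and in none of those of Igfbp3, Igfbp4 and Igfbp6. Igf2, which was lower in gliospheres and is not printed, had GC boxes at 2 of its 4 starts, and the second start of Igfbp2 had none. Over all 14 starts 6 held one, and 33% of the 32526 distinct stretches of this length did. The E-box was found in Igf2r, 7 and 48 bases before the start, and in Igfbp2, 142 bases before it, with a share of 6.04% over all stretches. ACGTG outside an E-box was found in Igfbp7 and at 1 start of Igf2. Counted inside or outside an E-box, this pentamer was held by 4 of the 14 starts and by 16.7% of all stretches. TATAAA stood 28 bases before the start of Igfbp4 and 148 bases before that of Igfbp6, on the opposite strand there (12.3% of all stretches), and CCAAT occurred in Igfbp6 at 107 and 50 bases (33.8%).

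Other genes of the pathway were counted by list, each gene by its brightest probe. None of the 26 list genes tested passed between LPS-stimulated and untreated gliospheres, where 0.991% of all genes did. Of the proteases that cut IGF binding proteins and their inhibitors, all 3 tested were higher in gliospheres than in vivo. This direction was called for 13.2% of all genes in untreated and 14.8% in LPS-stimulated gliospheres. The median log2 difference of the 3 from GFAP-glia in vivo was 2.95 for LPS-stimulated and 3.00 for untreated gliospheres. Adam12, a metalloprotease known to cut IGFBP-3 and IGFBP-5, had normalized log2 signals of 10.53, 9.42 and 10.07 in LPS-stimulated gliospheres, 10.19, 9.89 and 9.89 in untreated gliospheres, and 5.13, 5.72 and 5.15 in GFAP-glia in vivo. It was 25.2-fold higher in untreated gliospheres (log2 difference 4.65, adjusted p = 2.12e-05) and 25.5-fold higher in LPS-stimulated gliospheres (4.67, adjusted p = 1.45e-05) than in vivo. Adam12 was close to background in vivo (detection p of 0.026, 0.009 and 0.044), and with the authors' normalized values its log2 differences were 2.62 and 2.64. Stc2, an inhibitor of the protease PAPP-A, was 7.98-fold higher in untreated gliospheres (3.00, adjusted p = 0.00346) and 7.73-fold higher in LPS-stimulated gliospheres (2.95, adjusted p = 0.00308), with 1.52 and 1.45 by the authors' normalized values. Htra1, a serine protease that can cut IGF binding proteins, was higher by 1.53 (adjusted p = 0.0470) and 1.61 (adjusted p = 0.0351), and neither passed with the replicate number as a block (adjusted p = 0.0816 and 0.0644). With 1 array left out it passed in 3 and 4 of 9 fits, and Adam12 and Stc2 passed in all 9. Pappa, Pappa2, Stc1 and Igfals had no probe in the test.

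Of the receptor adaptors, Shc1, which links receptors to Ras, was higher in untreated (1.04, adjusted p = 0.0332) and LPS-stimulated gliospheres (1.35, adjusted p = 0.00939) than in vivo. Grb10, an adaptor that restrains IGF1R and insulin receptor signals, was higher by 0.72 (adjusted p = 0.0388) and 0.87 (adjusted p = 0.0159). Irs2, a docking protein of these receptors, was lower, with log2 differences of -0.77 (adjusted p = 0.0313) and -0.82 (adjusted p = 0.0217). Before normalization all untreated gliosphere arrays had higher Irs2 signals (726, 747 and 811) than the in vivo arrays (628, 610 and 479). LPS-stimulated gliospheres had 646, 630 and 504, so that the lower Irs2 values in gliospheres appear only after normalization. For untreated gliospheres, Grb10 and Irs2 did not pass with the replicate number as a block (adjusted p = 0.0744 and 0.0519). With 1 array left out, the untreated comparison passed in 3 of 9 fits for Shc1, 2 for Grb10 and 1 for Irs2, and the LPS-stimulated comparison in 9, 7 and 5. The other 3 of the 6 tested did not pass in either comparison. Of all genes, 26.0% passed for untreated and 29.4% for LPS-stimulated gliospheres.

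Of the relay from PI3 kinase to FoxO, 2 genes were higher and 2 lower of 11 tested in untreated gliospheres, and 1 was higher and 1 lower in LPS-stimulated gliospheres, where 26.0% and 29.4% of all genes passed. Pik3r1, a regulatory subunit of PI3 kinase, was higher by 0.86 (adjusted p = 0.0319) and 0.97 (adjusted p = 0.0172) in untreated and LPS-stimulated gliospheres. Pdpk1, the kinase that activates Akt, had log2 differences of -0.93 (adjusted p = 0.0118) and -1.0 (adjusted p = 0.00725). Before normalization the Pdpk1 signals of untreated gliospheres (990, 761 and 922) overlapped those in vivo (917, 815 and 515). Foxo1 (0.92, adjusted p = 0.0325) and Mtor (-1.09, adjusted p = 0.0422) passed in untreated gliospheres, and with the replicate number as a block neither did (adjusted p = 0.0568 and 0.0610). With 1 array left out, the untreated comparison passed in 2 of 9 fits for Pik3r1, 8 for Pdpk1, 4 for Foxo1 and 2 for Mtor, and the LPS-stimulated comparison in 6 for Pik3r1 and 9 for Pdpk1.

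Of the genes around Igf2, Igf2bp1, which encodes a protein that binds Igf2 mRNA, was above background on 0 of 6 gliosphere arrays and on 2 of 3 in vivo arrays. It was at least 1.47-fold lower in untreated gliospheres (adjusted p = 0.00233) and at least 1.41-fold lower in LPS-stimulated gliospheres (adjusted p = 0.00280) than in GFAP-glia in vivo. Its relative Igf2bp3 was higher in LPS-stimulated gliospheres (1.64, adjusted p = 0.0263, passing in 5 of 9 fits with 1 array left out) and did not pass in untreated gliospheres (1.05, adjusted p = 0.127). Igfbpl1, a protein related to the binding proteins, was above background on all 6 gliosphere arrays and on 0 of 3 in vivo arrays, and was at least 5.56-fold higher in untreated gliospheres (adjusted p = 1.68e-04) and at least 5.80-fold higher in LPS-stimulated gliospheres (adjusted p = 1.10e-04) on the VSN scale. With the authors' normalized values its log2 differences were 0.96 and 0.99, smaller than these bounds, and passed. Kazald1, of related sequence, was detected on 2 of the 3 arrays of untreated gliospheres and nowhere else. It was at least 1.10-fold higher in untreated gliospheres than in vivo (adjusted p = 0.00209), and no bound could be given without in vitro replicate 2. The limma test also called Kazald1 higher in LPS-stimulated gliospheres than in vivo (1.93, adjusted p = 0.00819). Neither of these groups had an array above background, so that this call cannot be read as a difference in expression.

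**Figure D4:**
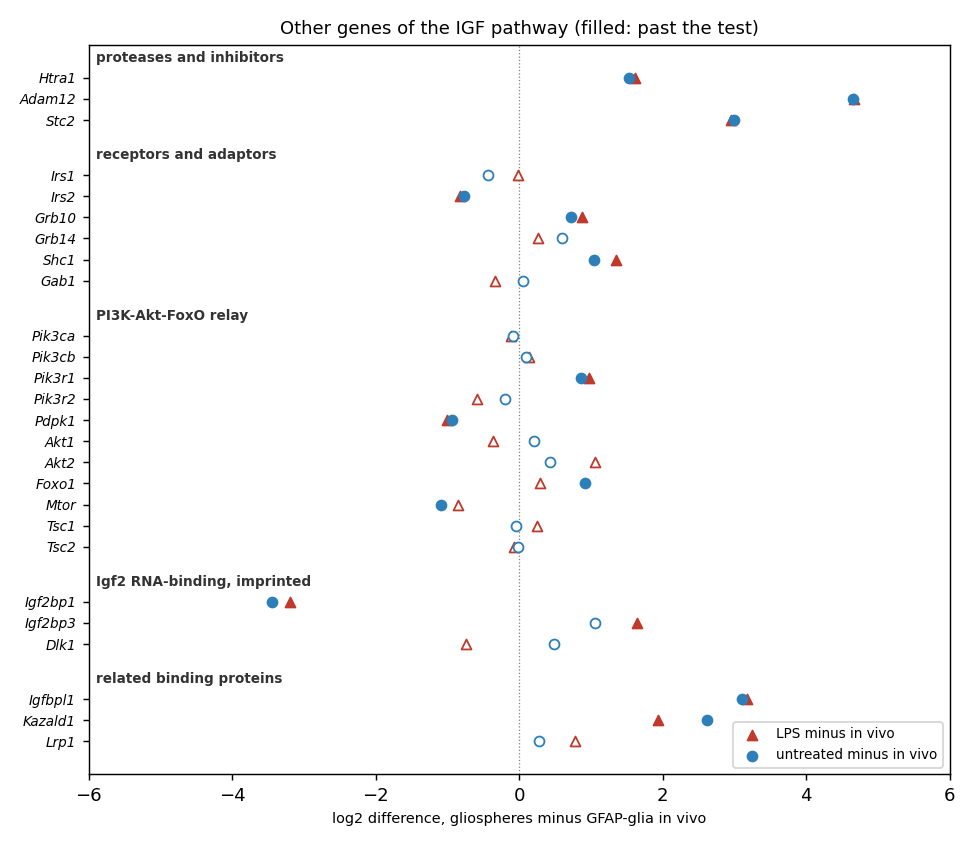
Log2 differences (horizontal axis) of the 26 other IGF pathway genes tested (rows, grouped by list) in LPS-stimulated gliospheres minus GFAP-glia in vivo (triangles) and untreated gliospheres minus GFAP-glia in vivo (circles), with filled symbols for genes past the test. The 3 proteases and inhibitors all lie on the right, from 1.53 to 4.67, and Igf2bp1 lies furthest to the left.

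The genes most like each member over the 9 arrays were listed by Pearson's r, as a description, since the arrays share a split into cultured and directly sorted cells. Igf1, Igf1r and Igfbp5 passed in neither in vivo comparison. Igf1, Igfbp3 and Igfbp6 were not above background on every array, so that part of their r comes from values near background. Igf2 was most like Ntrk3, the neurotrophin-3 receptor (r = 0.9925), Enkur (0.9916) and Cobl (0.9896). Igf2r was most like Fkbp11 (0.9916), Fndc3b (0.9912) and Prcp (0.9900). Igfbp7 was most like the tetraspanin gene Cd63 (0.9928), Apod, which encodes apolipoprotein D (0.9914), and Itga5, an integrin subunit of the fibronectin receptor (0.9902). Igfbp2 was most like Rida (0.9891), the ETS factor gene Etv4 (0.9879) and Prelp (0.9862), and Igfbp3 most like Myo10 (0.9800), Cdk5rap2 (0.9777) and Mocs1 (0.9739). Igfbp4 was most like Garnl3 (0.9893), Gspt2 (0.9715) and Nat14 (0.9695), and Igfbp6 most like Slc25a1 (0.9923), Shf (0.9911) and Gng8 (0.9886). Igf1r was most like Syngr2 (0.9873), Serp1 (0.9847) and Gnb1 (0.9786), and Igf1 most like Hpcal1 (0.9597), Atg13 (0.9494) and Pmvk (0.9470). Igfbp5 had the lowest values of the 10, with Epha2 (0.9179), Calr (0.8970) and Ccm2 (0.8845).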

How the data were processed

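The 9 arrays were grouped by their GEO titles into LPS-stimulated gliospheres, untreated gliospheres and GFAP-glia in vivo. The signal table deposited by the authors gives GenomeStudio intensity per probe and array (version not given in the sources used here), without background correction, and a detection p-value that the authors deposited with each signal. A second deposited table gives normalized intensity and was used as an alternative. Its columns share 1 set of values (array medians of 164.2 to 164.4), as after quantile normalization, whereas the methods name VSN. Decimal points were missing from most cells of each table (95.7 to 98.2% of the signals per array). The point was restored by pairing the signal and the normalized value of each probe, which rise together on each array. The scale of 1 of 25697 probes stayed undecided, and it was dropped. The step was tested on simulated data.

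Signals were background-corrected by normexp (limma 3.58.1, R 4.3.3, with the negative controls' mean and SD estimated through the detection p) and normalized by VSN, in code written after the published model (0 of 133146 values moved by over 0.1 from a second start). Probes needed a detection p of 0.05 or less on at least 1 array and a platform symbol, which kept 14794 probes of 10795 genes. limma's moderated test compared the 3 group means (6 residual degrees of freedom, prior 3.10) with Benjamini-Hochberg adjustment over all probes and a threshold of 0.05. Each gene counts by its probe with the highest mean signal. Where no array of a group measured a gene above background, its fold is given as at least the stated value. The dimmer arrays then enter with their lowest detected value, or with the probe's own value where that is higher. The number of arrays limits the precision.

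Each preparation was split into LPS-stimulated and untreated gliospheres, and arrays of 1 replicate number were taken as 1 preparation. After subtraction of the group means, gliosphere arrays of the same number correlated at 0.16, 0.09 and 0.17, against -0.14 to -0.02 for other numbers. Untreated gliosphere and in vivo arrays of different numbers reached 0.19 and 0.16, so that correlations of this size do not establish the matching. The in vivo arrays are not tied to the gliospheres by the labels, and the block over all 9 arrays joins them by number. Alternatives were quantile normalization, no background correction, the authors' normalized values, no detection filter, the block, only the groups compared, trended and robust variances, array weights and leaving out each array. The members and gene lists were chosen with earlier results of these data known. Named are all 10 members, up to 4 genes of each list with the largest called differences, and for each member the 3 genes of highest correlation. Start sites, gene positions and sequences are from RefSeq (GRCm38.p6), and all 10 symbols matched.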

Additional observations from a re-analysis of the deposited data

How the results depend on the processing

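The number of IGF genes past the test stayed at 0 of 10 between LPS-stimulated and untreated gliospheres under every alternative listed in the methods, including the fits with the replicate number or the litter as a block. It was 5 in 1 combination chosen after the data had been seen, a fit of the authors' normalized values on gliospheres alone with litter as replicate block, which called 1216 probes in all, against 122 in the reported fit. The cause was not tested. The count of all probes was 209 with only these groups in the fit, 423 with array weights and 39 to 215 when 1 array was left out. Between untreated gliospheres and GFAP-glia in vivo, 7 genes passed (6 to 8 with 1 array left out, 6 with the authors' normalized values, with no filter on detection or when fitted on just the pair of groups, 7 with array weights, where Igf1r was gained and Igfbp4 lost, and 7 with the replicate block). All probes past the test there numbered 3700, and 2364 without in vitro replicate 2. For LPS-stimulated gliospheres against GFAP-glia in vivo, 7 genes passed (7 to 8 with 1 array left out, 6 with the authors' normalized values, 8 with array weights, where Igf1r also passed, and 7 with the replicate block). The replicate block changed no call of a member other than the dimmer Igfbp2 probe's in untreated gliospheres. Of the 25 list gene differences that passed, 12 did so under every alternative and 0 changed sign. Both the 25 and the 12 include Kazald1 in LPS-stimulated gliospheres against GFAP-glia in vivo, which was above background in neither group.

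Changes of sign were limited to differences that did not pass. Between LPS-stimulated and untreated gliospheres, leaving out 1 array gave -0.31 to 0.10 and -0.03 to 0.68 for the brighter and the dimmer Igfbp2 probe, with 0.08 without in vitro replicate 3 and -0.01 without in vitro_LPS replicate 3, and -0.15 to 0.38 for Igfbp6 (-0.03 without in vitro replicate 2). For LPS-stimulated gliospheres against GFAP-glia in vivo it gave -0.86 to 0.01 for Igf1 and -0.13 to 0.25 for Igfbp5, which was -0.07 with quantile normalization and with the authors' normalized values, with or without the replicate block. Signals near background, as for Igf1, Igfbp6 in gliospheres and Igfbp3 in vivo, limit how far their differences can be read. Leaving out 1 array in the lower bounds was chosen after the data had been seen.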
